A study of Mus musculus with 61 samples.

Results

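Most Serpina antiproteases are secreted serpins that block serine proteases. The rule took every probe set whose gene symbols all belong to the clade A serpins and that includes at least 1 of the genes Serpina1a to Serpina1e, Serpina3f, Serpina3g, Serpina3m and Serpina3n. It found 6 probe sets of the 45101 on the array, and these carried the symbols of 6 of the 9 genes. Serpina1b had a pair of its own (1418282_x_at and 1451513_x_at), and Serpina1c (1448680_at) and Serpina3n (1419100_at) had 1 each. The other two were shared, 1420553_x_at by Serpina1d and Serpina1a and 1449321_x_at by Serpina1e, Serpina1c and Serpina1b. Serpina3f, Serpina3g and Serpina3m were not analysed here. The family was selected on a measured value, the lower Serpina1b level with LTBR-Ig than with MOPC-21 in the lacrimal gland at week 16. Every comparison with the treated week 16 lacrimal arrays is therefore given as a description, without a test.

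Male NOD mice, which develop autoimmune inflammation of the lacrimal gland and, unlike females, only rarely of the salivary glands, were profiled on 61 Affymetrix arrays, 31 of lacrimal and 30 of salivary gland. Treated mice received weekly injections of LTBR-Ig, a mouse lymphotoxin-beta receptor joined to mouse IgG1 that blocks this receptor's ligands, or of MOPC-21, a control mouse IgG1, starting at 8 weeks of age, and the untreated mice received neither. LTBR-Ig and MOPC-21 groups were sampled at week 12 and week 16, with 4 lacrimal arrays in each, and untreated lacrimal glands at week 8 (n = 4), week 12 (n = 3), week 14 (n = 4) and week 16 (n = 4). Salivary groups had 4 arrays each, except 2 for LTBR-Ig at week 12. Per the study's methods, a lacrimal array held both glands of 1 mouse, and a salivary sample combined several salivary glands with the cervical nodes cut away. The salivary labels do not say that arrays are separate mice, so their p-values measure the spread between arrays.

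Antitrypsin, the product of the Serpina1 genes, is made mainly by the liver and circulates in blood, where it inhibits neutrophil elastase. Mice carry several near-identical copies of the gene side by side on chromosome 12, while humans carry a single one. Serpina3n is a mouse counterpart of the human antichymotrypsin gene, an acute phase protein gene that responds to cytokines acting through STAT3, and its product inhibits granzyme B and cathepsin G.

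The regions before the starts of the Serpina1 copies are nearly the same where they align, and a pair of them is shown for that reason, with the Serpina3n region beside them. The 250 bases before the start that RefSeq promoter windows use for Serpina1b, Serpina1c and Serpina3n, the genes with probe sets of their own, are given in build GRCm38.p6. They lie at chr12:103738190-103738439 on the minus strand, chr12:103904951-103905200 on the minus strand and chr12:104406458-104406707 on the plus strand. The last 62 bases of the Serpina3n window lie inside the annotated gene, whose first base is further upstream than that start, and the Serpina1 windows lie wholly before theirs. Capitals mark GTTAAT, a short motif of the liver factor HNF1.
Serpina1b: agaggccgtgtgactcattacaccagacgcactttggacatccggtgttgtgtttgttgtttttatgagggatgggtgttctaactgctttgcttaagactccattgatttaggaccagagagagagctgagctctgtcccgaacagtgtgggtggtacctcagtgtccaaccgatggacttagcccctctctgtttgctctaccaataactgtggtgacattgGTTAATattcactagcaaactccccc
Serpina1c: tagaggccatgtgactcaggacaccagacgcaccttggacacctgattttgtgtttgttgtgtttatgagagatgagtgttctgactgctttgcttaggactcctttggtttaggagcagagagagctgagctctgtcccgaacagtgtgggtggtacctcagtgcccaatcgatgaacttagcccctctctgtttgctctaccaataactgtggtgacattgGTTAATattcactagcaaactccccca
Serpina3n: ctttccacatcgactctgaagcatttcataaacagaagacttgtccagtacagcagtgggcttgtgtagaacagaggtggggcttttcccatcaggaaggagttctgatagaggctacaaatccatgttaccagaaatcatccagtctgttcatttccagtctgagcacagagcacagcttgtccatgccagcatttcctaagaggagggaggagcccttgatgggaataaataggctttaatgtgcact

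The Serpina1b and Serpina1c windows matched at 229 of 250 aligned positions (91.6%, gaps counted as mismatches), and the 10 pairs among the 5 Serpina1 copies matched at 91.4% to 97% of the positions that aligned. GTTAAT, searched on both strands, stood once in the window of each of the 5 Serpina1 copies and not in that of Serpina3n. In Serpina1b its first base lay 26 bases before the start, and in Serpina1c 27. In Serpina1a it lay 21, in Serpina1d 16 and in Serpina1e 78 bases before the start. The Serpina1e window aligned with the others over only 189 to 200 positions, and the 97% belongs to its pair with Serpina1b. Of 32851 promoter windows of the same length, 6.43% held it. The STAT motif TTCNNNGAA (7.02% of windows) and a consensus motif of NF-kappaB (0.356%) were searched in the same way and had no match in the 6 windows examined. These are matches of letters only.

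Probe sets with the suffix x_at contain probes that can also match related transcripts, so the Serpina1b signal may include RNA of other copies. The target sequence of 1449321_x_at is named for Serpina1d in the RefSeq table, although its annotated symbols are those of other copies. Levels are log2 values as deposited, and a value of 4 was taken as the floor above which a probe set counts as detected. Between 38.1% and 41.4% of probe sets passed that floor on a lacrimal array and between 37.3% and 40.3% on a salivary array. The number of arrays limits the precision. Pax6, a transcription factor of the lacrimal gland, stood at 8.36 to 10.4 on lacrimal and at 2.89 to 3.69 on salivary arrays. Because the liver is the main source of antitrypsin, 8 markers of hepatocytes were checked, and 7 of them, albumin (Alb) at 3.13 or less among them, stayed below the floor on all 61 arrays, while Ttr ranged between 3.78 and 7.03 on lacrimal and between 8.16 and 10.8 on salivary arrays. Amy1, a salivary amylase, exceeded 8 on 8 of the 31 lacrimal arrays, spread over 5 groups, and on some salivary arrays (the arrays high in Amy1). Results for the family and the gene lists are also given without the arrays high in Amy1 where that changes a call or moves a value by over 1.5 times.

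Serpina1b was scarcely detected in the lacrimal gland of 8-week-old mice and strongly expressed from week 12 onwards. At week 8 its lead probe set 1418282_x_at read 3.27, 4.84, 3.97 and 4.72 on the 4 untreated arrays. At week 12 the 3 untreated arrays read 7.67, 7.27 and 9.40, and at week 14 the 4 arrays read 9.03, 9.16, 8.40 and 9.24. At week 16 they read 8.93, 9.05, 9.23 and 9.73. Every array of the later weeks lay above every array of week 8, as it did for 13.6% of all probe sets tested at week 12, 19.4% at week 14 and 23.8% at week 16. The week 12 group was the most widely spread, with 1 array at the level of week 16.

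Untreated glands held 9.23 ± 0.35 at week 16 and 4.20 ± 0.73 at week 8 (SD, n = 4 each), a log2 difference of 5.04 ± 0.41 (SE) or 32.8-fold (adjusted p = 3.88e-10, limma with Benjamini-Hochberg adjustment over 20077 probe sets). At week 12 the difference from week 8 was 3.91 ± 0.45, or 15.1-fold (limma, adjusted p = 2.86e-07), and at week 14 it was 4.76 ± 0.41, or 27.1-fold (limma, adjusted p = 1.36e-09). The second Serpina1b probe set, 1451513_x_at, gave 25.5-fold at week 16, 12.5-fold at week 12 and 22.4-fold at week 14. All these folds are set against a week 8 level close to the floor, so their size depends on values near background. These comparisons share the week 8 arrays. The 2 probe sets differed by a median of 0.24 log2 units over the 31 lacrimal arrays, and across those arrays their Pearson correlation was 0.992, which describes probe sets of 1 gene read on the same RNA.

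**Figure D1:**
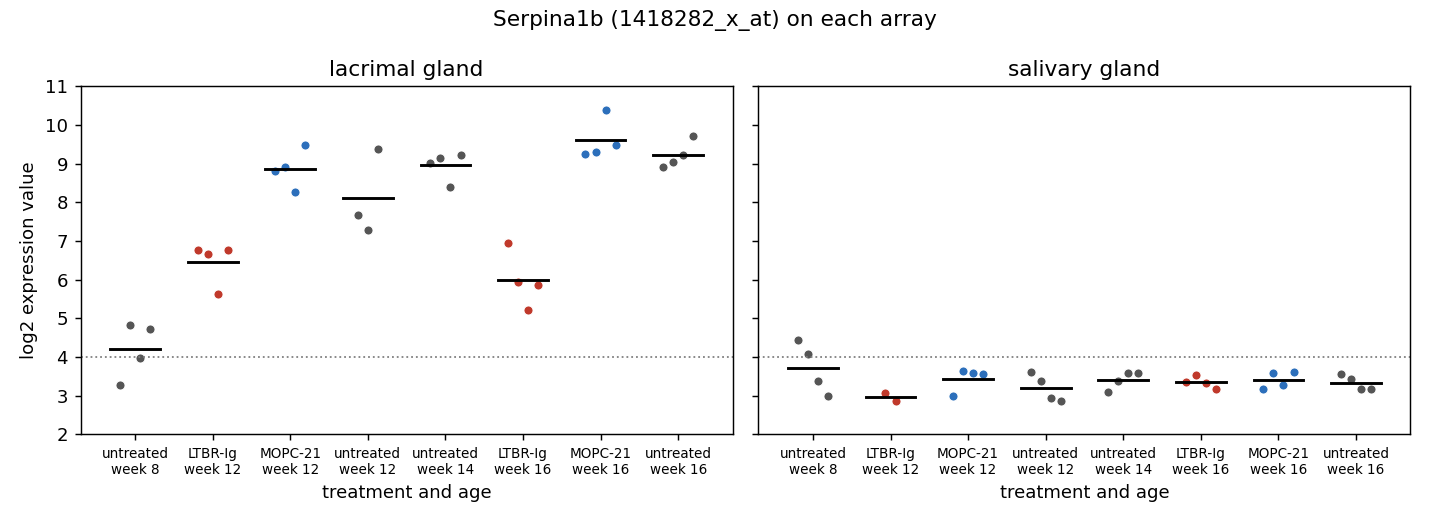
Log2 expression value of Serpina1b (1418282_x_at) on each lacrimal (left) and salivary (right) array, by treatment and age, with points for arrays, black bars for group means and a dotted line at the floor of 4. The lacrimal untreated and MOPC-21 arrays of weeks 12 to 16 lie between 7.27 and 10.4, the LTBR-Ig arrays between 5.22 and 6.95, and all salivary arrays between 2.87 and 4.45.

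Serpina3n also rose with age. Its week 8 values were 3.41, 3.81, 3.14 and 3.89, all below the floor. The untreated arrays read 6.16, 5.72 and 7.68 at week 12, then 6.74, 7.03, 6.80 and 7.35 at week 14, and 6.54, 6.75, 7.11 and 7.75 at week 16. No later array reached down to the week 8 range. The mean was 7.04 ± 0.53 at week 16 and 3.56 ± 0.35 at week 8 (SD, n = 4 each), a log2 difference of 3.47 ± 0.37 (SE) or 11.1-fold (limma, adjusted p = 3.19e-08). The differences at week 12 and week 14 were 7.78-fold (limma, adjusted p = 3.3e-06) and 10.7-fold (limma, adjusted p = 5.27e-08).

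**Figure D2:**
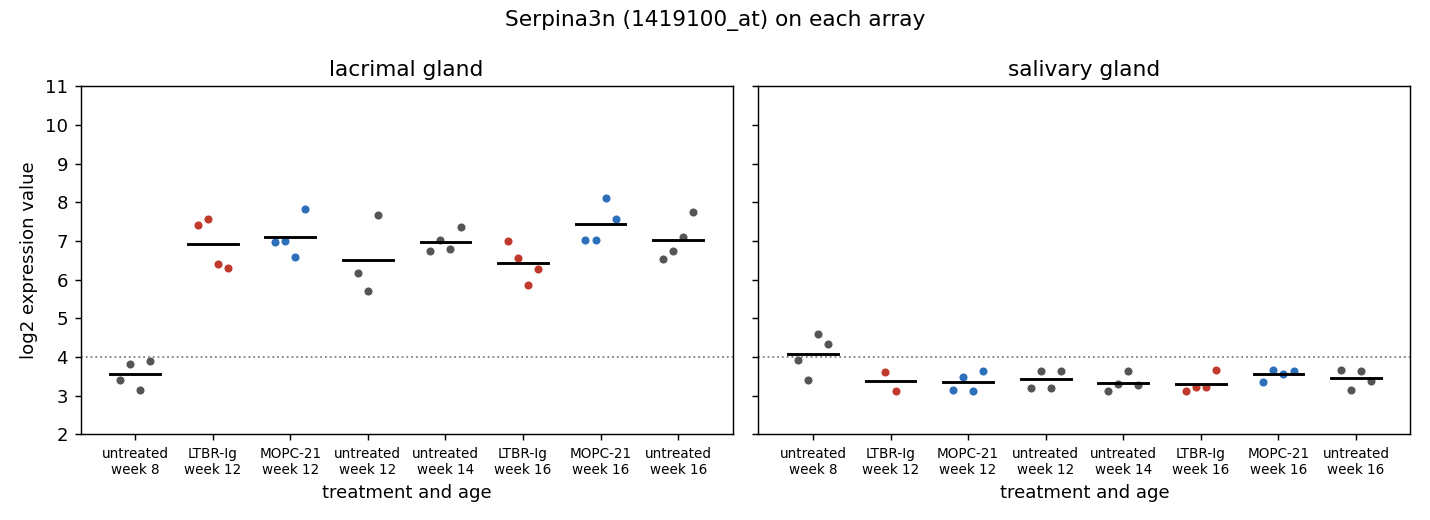
Log2 expression value of Serpina3n (1419100_at) on each lacrimal (left) and salivary (right) array, by treatment and age, with points for arrays, black bars for group means and a dotted line at the floor of 4. Lacrimal arrays of week 12 and later lie between 5.72 and 8.13 in all treatment groups, and the 4 lacrimal arrays of week 8 lie below 4.

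The other antitrypsin probe sets stayed at or near background. Serpina1c read 1.76 to 1.89 in untreated glands of week 8. In untreated glands of week 12 it read 1.76, 1.77 and 3.67, in those of week 14 2.53, 2.14, 2.75 and 3.55, and in those of week 16 2.17, 1.88, 2.72 and 4.68. Only 1 of these arrays was above the floor, and the week 16 minus week 8 difference of 1.07 ± 0.51 log2 units (SE) missed the threshold (limma, adjusted p = 0.0774). It passed at 1.91 (limma, adjusted p = 0.0188) without the arrays high in Amy1, where week 16 kept 2 arrays, and its adjusted p ranged between 0.0188 and 0.424 over all alternatives.

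The probe set shared by Serpina1d and Serpina1a read 3.05 to 3.52 at week 16 and 3.11 to 3.28 at week 8, a log2 difference of -0.02 with a 95% interval of -0.48 to 0.44 (limma, adjusted p = 0.951). The probe set shared by Serpina1e, Serpina1c and Serpina1b never exceeded 3.64 and was not tested. The 14 other Serpina probe sets on the array, for 11 genes or pseudogenes such as Serpina5 and Serpina6, all stayed below the floor on every array, the highest at 3.78.

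Of the 5 probe sets of the family tested in lacrimal gland, 3 rose at week 16 against week 8, the 2 of Serpina1b and that of Serpina3n, where 12.1% of all probe sets tested rose and 4.49% fell. The same 3 rose at week 12 (6.07% of all probe sets) and at week 14 (9.89%). A probe set passed the filter only where it was detected in some group, so these counts say little beyond the values above. In the same comparison at week 16 the 6 B cell markers tested rose by a median of 5.84 log2 units, the 6 T cell markers by 3.38 and the 7 markers of macrophages and dendritic cells by 2.45, all called except 1 of the last group. The level over the whole B cell list was 8.31 to 9.21 at week 16 and 3.01 to 3.94 at week 8, and 3 of its 6 genes were below the floor on every week 8 array. More cells of a type and more RNA in each cell cannot be told apart in whole glands. The part of these cells in the rise of the serpins was not tested.

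In the salivary gland neither gene rose. Serpina1b read 3.56, 3.42, 3.18 and 3.18 at week 16 and 4.45, 4.07, 3.39 and 3.0 at week 8, an overlap of the groups with a log2 difference of -0.39 ± 0.23 (SE, limma, adjusted p = 0.191). Serpina3n read 3.66, 3.15, 3.64 and 3.39 at week 16 and 3.92, 3.41, 4.59 and 4.35 at week 8, a difference of -0.61 ± 0.20 log2 units (limma, adjusted p = 0.0198) that stayed under the fold of 2 required for a call. None of the 2 probe sets of the family tested there was called, where 4.29% of all probe sets rose and 2.85% fell. No salivary array of week 12 or later exceeded 3.63 for Serpina1b on 1418282_x_at or 3.66 for Serpina3n, so both were below the floor there.

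The difference between the glands was larger at week 16 than at week 8. At week 8 Serpina1b was 4.20 in lacrimal and 3.73 in salivary gland, and Serpina3n was 3.56 in lacrimal and 4.07 in salivary gland, differences that missed the threshold (limma, adjusted p = 0.255 for Serpina1b and 0.164 for Serpina3n), where 7.19% of all probe sets were called higher and 11.6% lower in lacrimal gland. The 95% interval of the difference ran from -0.22 to 1.16 log2 units for Serpina1b and from -1.12 to 0.11 for Serpina3n. The week 16 minus week 8 difference was 5.43 ± 0.48 log2 units larger in lacrimal than in salivary gland for Serpina1b (limma interaction term, adjusted p = 8.6e-13) and 4.08 ± 0.43 larger for Serpina3n (adjusted p = 1.11e-10). The salivary part of these values, -0.39 for Serpina1b and -0.61 for Serpina3n, came from levels near or below the floor. The interaction term was called, in the direction of the lacrimal gland, for 3 of the 5 probe sets of the family tested over both tissues and for 12.6% of all probe sets. The calls include both Serpina1b probe sets, of which the second passed the filter only through lacrimal arrays. Serpina1c and the probe set shared by Serpina1d and Serpina1a passed it only through the lacrimal MOPC-21 arrays of week 16. Nothing is therefore read from that count.

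The LTBR-Ig comparison at week 12 used mice other than those in which Serpina1b was chosen. Serpina1b (1418282_x_at) read 6.78, 6.66, 5.64 and 6.78 after 4 weeks of LTBR-Ig, against 8.80, 8.91, 8.28 and 9.48 with MOPC-21. All LTBR-Ig arrays lay below all MOPC-21 arrays, as for 3.3% of all probe sets, and also below the untreated arrays of the same week, of which the lowest was 7.27, as for 2.54%. The means were 6.46 ± 0.55 with LTBR-Ig and 8.87 ± 0.49 with MOPC-21 (SD, n = 4 each). The log2 difference was -2.41 ± 0.41 (SE), a level 5.30-fold lower (limma, adjusted p = 0.0114). The second probe set gave 4.96-fold lower (limma, adjusted p = 0.0158).

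These were 2 of the 7 probe sets called lower in this comparison among 20077, or 0.0349%. The call depended on single arrays. The adjusted p of 1418282_x_at ranged between 0.00471 and 0.109 over all alternatives while the difference stayed between -2.68 and -2.13. The adjusted p was 0.0556 without LTBR-Ig replicate 3, 0.0619 without MOPC-21 replicate 4, and 0.0939 when only the arrays compared entered the fit. Of the LTBR-Ig arrays 2 were high in Amy1, as was 1 MOPC-21 array, and without them the adjusted p was 0.109.

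Against untreated mice of week 12 the difference was -1.65 ± 0.45 log2 units, or 3.14-fold lower, and missed the threshold (limma, adjusted p = 0.339), where 1 probe set of 20077 (0.00498%) was called lower. MOPC-21 and untreated arrays of week 12 overlapped, at 8.28 to 9.48 and 7.27 to 9.40 (limma, adjusted p = 0.83), a comparison in which no probe set was called. This last comparison was added after the values were seen. The LTBR-Ig mean of week 12 was 6.46 and the untreated mean of week 8 was 4.20, a difference that was not tested. The 3 comparisons at week 12 share arrays, since each group enters 2 of them.

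Serpina3n did not show this difference. It read 7.41, 7.57, 6.41 and 6.32 with LTBR-Ig and 6.96, 7.01, 6.58 and 7.84 with MOPC-21 at week 12, ranges that overlap widely. The log2 difference was -0.17 with a 95% interval of -0.93 to 0.59 (limma, adjusted p = 0.949), and against untreated mice it was 0.40 with an interval of -0.42 to 1.23 (limma, adjusted p = 0.945). Without the arrays high in Amy1 the difference from untreated mice turned to -0.34, and both adjusted p-values lay between 0.238 and 1 over all alternatives. Serpina1c read 1.77, 1.80, 1.79 and 2.01 with LTBR-Ig and 2.09, 3.55, 1.80 and 3.29 with MOPC-21, all below the floor (limma, adjusted p = 0.681).

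**Figure D3:**
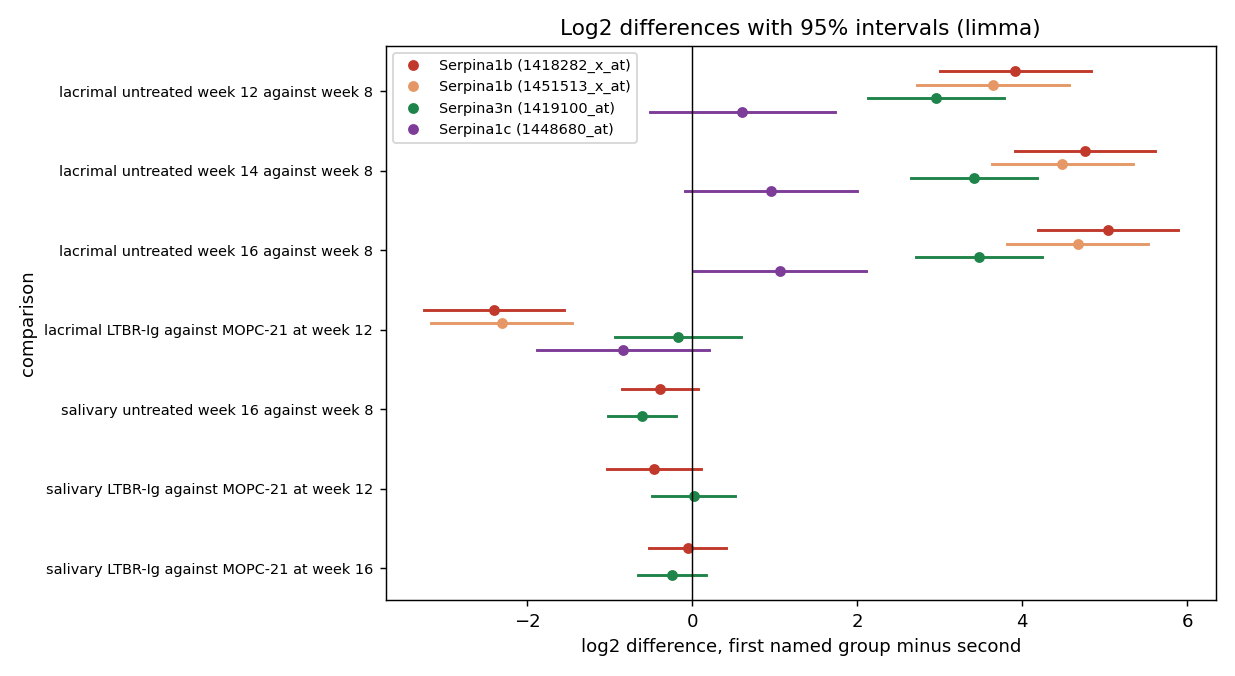
Log2 difference, first named group minus second, for 4 probe sets of the family in 7 tested comparisons, with 95% intervals from limma as horizontal lines (a probe set not tested in salivary gland has no line there). Serpina1b and Serpina3n lie to the right of 0 in all 3 comparisons with week 8 in lacrimal gland, and at week 12 only the Serpina1b intervals lie wholly to the left of 0 for lacrimal LTBR-Ig against MOPC-21.

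The 2 genes were also set side by side per array, as the Serpina1b value minus the Serpina3n value. The size of this gap has no meaning of its own because the probe sets differ in how strongly they bind. A constant difference in binding cancels in its change between groups, but whether the difference was constant was not tested. With LTBR-Ig at week 12 the gap was -0.63, -0.91, -0.78 and 0.46, against 1.84, 1.90, 1.70 and 1.64 with MOPC-21. The groups did not overlap, and the gap was 2.23 log2 units smaller with LTBR-Ig (exact permutation test, two-sided p = 0.0286, n = 4 each). With the second Serpina1b probe set it was 2.14 units smaller (exact permutation test, p = 0.0286). This p is the smallest that 4 against 4 arrays allow. Without the arrays high in Amy1, which leaves 2 LTBR-Ig and 3 MOPC-21 arrays, it was 1.91 units smaller (exact permutation test, p = 0.1, the smallest possible there). The gap at week 8 was not read, because Serpina3n lay below the floor on all 4 arrays. Adjustment over 4 gap comparisons, of which 2 set week 16 against week 8, left the permutation p at 0.0286. All 4 stood at this smallest value, so the adjustment could not have raised it. The gap was added after the values had shown Serpina1b apart and Serpina3n overlapping between the antibodies. Its p-values therefore cannot test whether the 2 genes responded unequally, and the gap is a description only. The second Serpina1b probe set was read on the same arrays and adds no separate evidence.

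**Figure D4:**
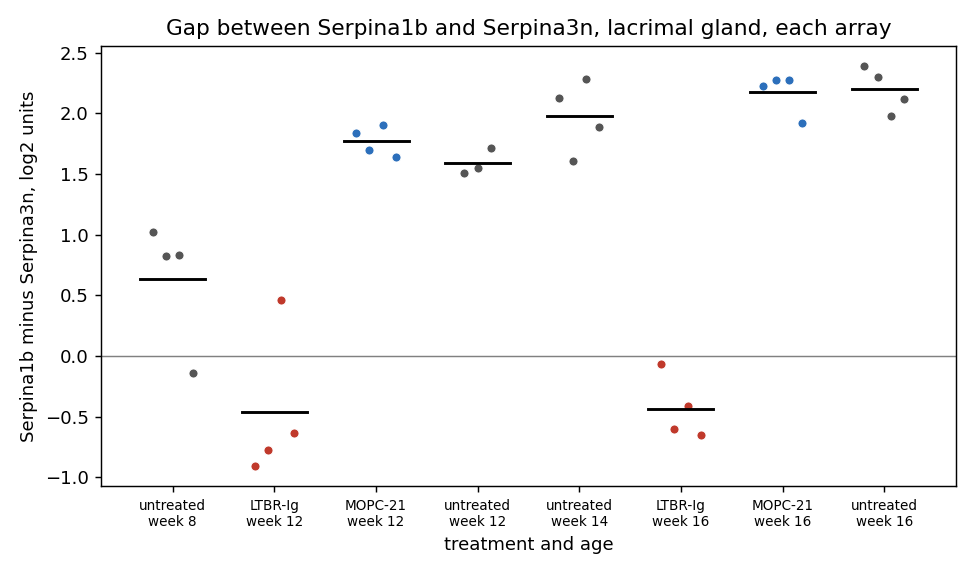
Serpina1b (1418282_x_at) minus Serpina3n (1419100_at) in log2 units on each lacrimal array, by treatment and age, with points for arrays and black bars for group means. The LTBR-Ig arrays of week 12 and week 16 lie between -0.91 and 0.46, and all MOPC-21 arrays and all untreated arrays of week 12 or later lie between 1.51 and 2.39.

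In salivary gland both genes were below the floor with either antibody, apart from 1 MOPC-21 array of week 12 at 4.04 on the second Serpina1b probe set. At week 12 Serpina1b read 3.08 and 2.87 with LTBR-Ig and 3.0, 3.63, 3.58 and 3.55 with MOPC-21 (limma, adjusted p = 0.499), and neither tested probe set was called, where 0.0306% of all probe sets were. At week 16 it read 3.37, 3.54, 3.33 and 3.18 with LTBR-Ig and 3.18, 3.58, 3.28 and 3.60 with MOPC-21 (limma, adjusted p = 1), again with neither called, where 0.0357% of all probe sets were. The week 12 difference of LTBR-Ig minus MOPC-21, lacrimal minus salivary gland, was -1.94 ± 0.54 log2 units (SE) for Serpina1b on its lead probe set (limma interaction term, adjusted p = 0.234) and -2.40 ± 0.58 on the second (adjusted p = 0.129). Neither passed the threshold, which 0.00925% of all probe sets did, so the response was not shown to differ between the glands. This interaction was added after the values were seen. Both salivary LTBR-Ig arrays of week 12 were high in Amy1 (14.9 and 11.8), as were MOPC-21 replicates 3 and 4 (10.9 and 8.52). The salivary week 12 comparison and this interaction could therefore not be run without such arrays. The part of the Amy1 level in them was not tested.

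At week 16, the comparison that led to the choice of Serpina1b, its lead probe set read 6.95, 5.95, 5.22 and 5.87 with LTBR-Ig, against 9.26, 9.30, 10.4 and 9.49 with MOPC-21 and 8.93, 9.05, 9.23 and 9.73 in untreated mice. The LTBR-Ig mean lay 3.24 log2 units below the untreated one, or 9.43-fold. It lay 1.80 above that of untreated mice at week 8 (3.48-fold). Every LTBR-Ig array lay above every week 8 array on this probe set, as for 13.4% of all probe sets. The second probe set did overlap there, with 4.78 the lowest LTBR-Ig array and 5.11 the highest at week 8. The LTBR-Ig arrays of week 16 and week 12 overlapped and their means were 6.0 and 6.46.

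The other probe sets at week 16 differed in how far LTBR-Ig arrays stood from the MOPC-21 ones. Serpina3n read 7.01, 6.55, 5.88 and 6.29 with LTBR-Ig and 7.04, 7.02, 8.13 and 7.56 with MOPC-21, means 1.01 log2 units apart with the nearest arrays at 7.01 and 7.02, and it overlapped with the untreated arrays. Serpina1c read 1.75, 1.80, 1.76 and 1.77 with LTBR-Ig, against 3.37, 3.31, 5.40 and 4.30 with MOPC-21 and 2.17, 1.88, 2.72 and 4.68 in untreated mice. The LTBR-Ig values were those of week 8, and 2 of 4 MOPC-21 arrays exceeded the floor. The probe set shared by Serpina1d and Serpina1a read 3.08 to 3.28 with LTBR-Ig and 3.41, 3.16, 4.88 and 4.25 with MOPC-21, overlapping, and MOPC-21 replicate 3 was the highest lacrimal array for all 6 probe sets of the family. In this comparison, which chose the family, every LTBR-Ig array lay below every MOPC-21 array for 4 of the 5 probe sets tested and for 12.7% of all probe sets. The 4 include both of Serpina1b, and Serpina1c, which passed the filter only through the MOPC-21 arrays of week 16, so nothing is read from that count.

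**Figure D5:**
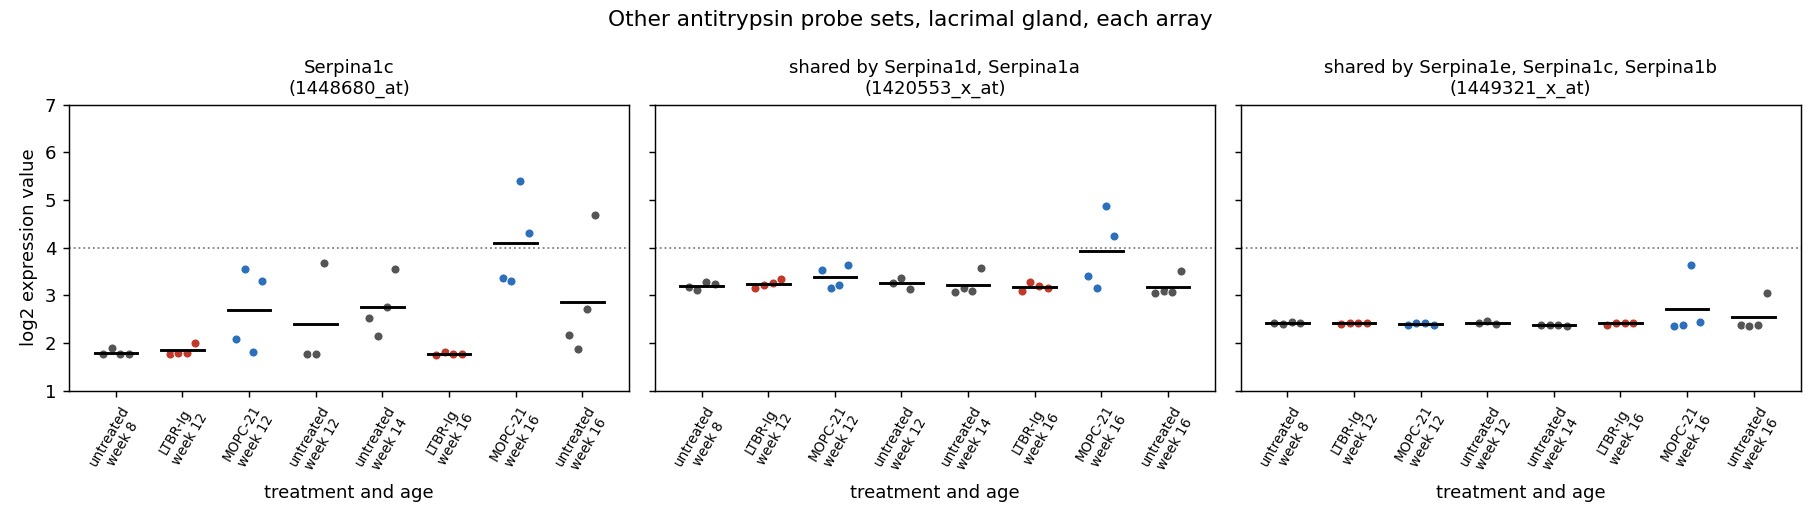
Log2 expression value of Serpina1c (1448680_at) and of the shared probe sets 1420553_x_at and 1449321_x_at on each lacrimal array, by treatment and age, with points for arrays, black bars for group means and a dotted line at the floor of 4. Above the floor lie 2 MOPC-21 arrays and 1 untreated array of week 16 for Serpina1c, 2 MOPC-21 arrays of week 16 for the probe set shared by Serpina1d and Serpina1a, and none for the other.

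Ordered by group mean in lacrimal gland, Serpina1b stood at 4.20 in untreated mice of week 8, 6.0 with LTBR-Ig at week 16, 6.46 with LTBR-Ig at week 12, 8.11 in untreated mice of week 12, 8.87 with MOPC-21 at week 12, 8.96 and 9.23 in untreated mice of week 14 and week 16, and 9.61 with MOPC-21 at week 16. Neighbours overlapped except at the step above week 8 and at the step above LTBR-Ig of week 12. Serpina3n stood at 3.56 in untreated mice of week 8, and the other 7 group means lay between 6.43 and 7.44 with overlap between all neighbours.

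Markers of other cells were compared on the same arrays. At week 12 the 6 B cell markers differed, LTBR-Ig minus MOPC-21, by a median of -0.46 log2 units and the 6 T cell markers by -0.33, whereas the 7 markers of macrophages and dendritic cells differed by 0.30 and the 5 of fibroblasts by 0.79, with none called. In the comparison of LTBR-Ig with untreated mice at week 12 the medians were 0.41 for B cell, 0.65 for T cell and 0.66 for macrophage and dendritic cell markers, again with none called. Between the antibodies, the week 12 level over the B cell list was 6.58 to 8.21 with LTBR-Ig and 7.19 to 9.14 with MOPC-21. At week 16 it was 5.16 to 7.93 with LTBR-Ig and 7.86 to 9.87 with MOPC-21. Markers of submandibular and sublingual gland stood at 5.79 to 11.4 with LTBR-Ig and 4.88 to 7.48 with MOPC-21 at week 12, and at 7.86 to 10.4 with LTBR-Ig and 3.18 to 5.64 with MOPC-21 at week 16. The salivary arrays, which express those markers, were below the floor for the lead Serpina1b probe set from week 12 onwards. The part of either set of cells in the Serpina1b difference was not tested.

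Genes with the most similar pattern were ranked by Pearson correlation over the 31 lacrimal arrays among 10118 genes, as a description across arrays that share their groups. For Serpina1b these were Ighv14-2 (r = 0.954), Rras (0.948), Nfkb2 (0.947), Stat4 (0.946) and Klrd1 (0.945). For Serpina3n they were Cd83 (0.985), Samhd1 (0.985), Cd52 (0.984), Arhgdib (0.982) and Arhgap30 (0.982). Serpina3n itself correlated with Serpina1b at 0.832. Without the 4 arrays of week 8 this was 0.636. The genes nearest to Serpina1b were then S1pr3 (0.950), Glycam1 (0.948), Pla2g2d (0.946), Zfp318 (0.934) and Ighv14-2 (0.927), while Cd83 stayed the nearest to Serpina3n (0.941). Both sets of arrays include the treated ones by which Serpina1b was chosen, so the correlations with Serpina1b are not independent of that choice.

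Of 14 other protease inhibitors tested in lacrimal gland, 8 rose and 1 fell at week 16 against week 8, where 12.6% of all genes rose and 4.54% fell. Their median was 1.52 log2 units, and that of all genes was -0.08. Many genes named here and in the lists that follow, such as Slpi, Serpinb1a, Klk1 and Cxcl9, had week 8 means below the floor, which leaves the size of those folds open to background signal. Slpi, an elastase inhibitor of secretions, rose 59.7-fold (limma, adjusted p = 2.46e-13). Serpinb1a, an intracellular inhibitor of neutrophil proteases, rose 40.0-fold (limma, adjusted p = 5.9e-09), Serpinb9, a granzyme B inhibitor, 8.19-fold and Cst3, a cathepsin inhibitor, 6.05-fold. In salivary gland 4 of 12 rose and 1 fell, where 3.98% of all genes rose and 3.37% fell, with Serpinb6a (7.42-fold) and Serpinb1a (4.02-fold) among them. Without the arrays high in Amy1, 5 of the 12 rose there. Under LTBR-Ig at week 12 none of the 14 was called against MOPC-21, where 0.0498% of all probe sets were. Their median was 0.01 log2 units, and -0.13 without the arrays high in Amy1.

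A list of 22 proteases held the serine proteases that these serpins inhibit and other proteases of leukocytes and glands, and 9 of them were tested in lacrimal gland. The classical targets did not exceed 2.69 (Elane, neutrophil elastase), 2.66 (Ctsg, cathepsin G) and 3.37 (Gzmb, granzyme B) on any lacrimal array. Of the 9, 5 rose at week 16 against week 8 and none fell, where 12.6% of all genes rose. Klk1, a tissue kallikrein that is also a product of salivary glands, rose 41.9-fold, and 6.76-fold without the arrays high in Amy1. Ctss and Ctsh, cysteine proteases that antitrypsin does not target, rose 26.1-fold and 5.09-fold, and Gzma, a granzyme, rose 3.21-fold. Gzmk, another granzyme, passed only without the arrays high in Amy1 (2.81-fold, limma, adjusted p = 0.0038). Among the 9 no difference was called at week 12 with LTBR-Ig against MOPC-21, where 0.0498% of all probe sets were called.

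Acute phase and cytokine response genes were examined because Serpina3n is induced with them in liver. Of 13 tested in lacrimal gland, 4 rose at week 16 against week 8 and none fell, where 12.6% of all genes rose, with Socs3, a STAT3-induced inhibitor of cytokine signalling, 7.92-fold higher, the oncostatin M receptor Osmr 4.89-fold, Lcn2 2.81-fold and Cp 2.05-fold. Il1b passed as well without the arrays high in Amy1 (2.24-fold, limma, adjusted p = 0.0308). Saa3, a serum amyloid gene, was the only one called with LTBR-Ig at week 12, at 4.57 with LTBR-Ig and 3.35, below the floor, with MOPC-21 (limma, adjusted p = 0.00434), where 0.0149% of all probe sets rose. Without the arrays high in Amy1 it missed the threshold (limma, adjusted p = 0.0962).

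All 14 interferon gamma response genes tested rose at week 16 against week 8, where 12.6% of all genes did, with Cxcl9 86.1-fold, Psmb8 41.6-fold, Gbp2 36.1-fold and Psmb9 33.3-fold higher (limma, adjusted p at most 4.58e-09 for these 4). At week 12 none was called with LTBR-Ig against MOPC-21, where 0.0498% of all probe sets were. Their median was 0.14 log2 units, and -0.32 without the arrays high in Amy1. In salivary gland 2 of 12, Irf8 and Psmb8, rose at week 16 against week 8, where 3.98% of all genes did, and Psmb8 missed the fold of 2 without the arrays high in Amy1.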

How the data were processed

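The values analysed are the log2 expression values that the authors deposited after GCRMA (version not given in the sources used here), for 45101 probe sets on 61 arrays, and they were used without further normalization. Symbols came from the platform annotation, in which 34958 probe sets carried 1 symbol, 932 several and 9211 none listed here. Each tissue was fitted in R 4.3.3 with limma 3.58.1, with 1 mean per group and an intensity trend. Both tissues entered 1 fit for comparisons between glands. A probe set was tested where 2 or more arrays of some group exceeded a log2 value of 4 (20077 lacrimal, 19617 salivary, 21626 jointly) and p-values were adjusted over all of them. A call needed a fold of 2 and an adjusted p under 0.05. Where a listed gene had several probe sets under its name alone, the brightest on average stood for it. The text names up to 4 called genes per list, those with the largest change, and the 5 genes most like Serpina1b and Serpina3n. The members and lists were chosen with earlier results of these data known. The fit was tested on simulated data. Arrays of a group correlated at 0.956 to 0.996, and no pair shared more than 0.149% identical values. Replicate numbers were not taken to pair the arrays, because same-numbered arrays deviated together (every correlation over 0.1, 3 pairs) only for MOPC-21 against untreated lacrimal glands of week 12, where the block called no probe set either. Salivary week 12, with 2 pairs, cannot settle it. Whether lacrimal and salivary arrays of a number share a mouse is not given, so the glands were treated as independent, and at week 8 their correlations lay between -0.15 and 0.10. Promoters were aligned with Biopython 1.88. Alternatives changed the filter, trend, normalization, posterior threshold, arrays fitted and replicate block, and left out arrays.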

Additional observations from a re-analysis of the deposited data

Results flagged for a closer look

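Among 49 groups of 4 arrays examined for probe sets of the family, 6 held an array far from the other three, and chance alone flags about 1 in 20 groups. Serpina1b (1418282_x_at) was 5.64 in LTBR-Ig replicate 3 of week 12 in lacrimal gland, with the others at 6.66 to 6.78, and 3.0 in MOPC-21 replicate 1 of week 12 in salivary gland, with the others at 3.55 to 3.63. Serpina1c was 2.01 in LTBR-Ig replicate 4 of week 12 and 1.89 in untreated replicate 2 of week 8 in lacrimal gland, with the others of those groups at 1.77 to 1.80 and at 1.76. The probe set shared by Serpina1d and Serpina1a was 3.52 in untreated replicate 4 of week 16, with the others at 3.05 to 3.10, and 3.58 in untreated replicate 4 of week 14, with the others at 3.06 to 3.15. All but the first of these lie below the floor of 4.

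The week 16 minus week 8 difference was larger in lacrimal than in salivary gland by 5.43 log2 units for Serpina1b on 1418282_x_at (limma interaction term, adjusted p = 8.6e-13), by 5.35 on 1451513_x_at (adjusted p = 7.13e-12) and by 4.08 for Serpina3n (adjusted p = 1.11e-10). The salivary levels that enter these values lay near or below the floor.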

How the results depend on the processing

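The calls of Serpina1b and Serpina3n in the 3 lacrimal comparisons with week 8 and in the interaction of week 16 minus week 8 with gland held under every alternative run, with Serpina1b between 4.73 and 5.28 and Serpina3n between 3.24 and 3.87 log2 units at week 16. For week 12 in lacrimal gland, LTBR-Ig against MOPC-21, the count of 2 called probe sets became 1 with only the arrays compared, 0 without the arrays high in Amy1 and 0 to 2 when single arrays were left out (0 without LTBR-Ig replicate 3, 0 without MOPC-21 replicate 4, 1 without MOPC-21 replicate 2). Fewer arrays entered each of those fits, and the cause was not tested. With the replicate number as a block the count of called probe sets of the family was 4 in place of 3 at week 16 against week 8, through Serpina1c, and did not change in the other 11 comparisons. The counts over all probe sets that moved by over 1.5 times were those for salivary LTBR-Ig against MOPC-21 (2 with the block and 7 without at week 16, 2 with it and 6 without at week 12), lacrimal LTBR-Ig against untreated at week 12 (2 with it and 1 without) and the week 12 interaction (5 with it and 2 without). Serpina1c at week 16 against week 8 was called under the block (adjusted p = 0.0467), without the arrays high in Amy1 (0.0188) and without untreated replicate 1 (0.0486) or 2 (0.0316) of week 16, and its interaction with gland was called without the Amy1-high arrays (0.0119) or replicate 2 (0.0329).

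The differences that changed sign were all small and none was called. Under the replicate block they were -0.093 for Serpina3n in salivary gland at week 12 (LTBR-Ig minus MOPC-21) and -0.29 for Serpina1c in lacrimal minus salivary gland at week 8, against 0.02 and 0.06 without it. Quantile normalization gave -0.0060 for that Serpina3n difference. Leaving out the arrays high in Amy1 gave -0.34 for Serpina3n, lacrimal LTBR-Ig minus untreated at week 12, against 0.40 with all arrays. It gave 0.42 for Serpina3n, lacrimal LTBR-Ig of week 16 minus week 12, against -0.49 with all arrays. That last comparison was described without a test. When single arrays were left out, Serpina3n lay between -0.39 and 0.076 (lacrimal LTBR-Ig minus MOPC-21, week 12), between -0.22 and 0.26 (the same in salivary gland) and between -0.43 and 0.055 (lacrimal minus salivary). Serpina1c lay between -0.029 and 0.93 (untreated week 12 minus week 8), between -0.88 and 0.078 (LTBR-Ig minus untreated, week 12) and between -0.035 and 0.92 (MOPC-21 minus untreated, week 12). Serpina1b in salivary gland at week 16 (LTBR-Ig minus MOPC-21) lay between -0.13 and 0.0087. Values near or below the floor limit what these arrays can show.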
